A study of Mus musculus with 6 samples.

Results

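The low-density lipoprotein (LDL) receptor family is described here by 8 transcripts, *Vldlr*, *Lrp8*, *Lrp1*, *Lrp1b*, *Sorl1*, *Lrp4*, *Lrp5* and *Lrp6*, out of 55401 genes in a count table of mouse embryos. They were taken by gene symbol, with *Lrp2* left out, and all 8 were found and passed the filter on low counts. RNA-seq was done on whole embryos at E10.5, a midgestation stage, with 3 libraries per genotype and, per the study's methods, 2 male embryos pooled in each. WT embryos carried the unmodified *Igf2* locus, whereas 5C littermates carried a tandem array of 5 extra copies of *Mir483*, a microRNA gene that lies in an intron of *Igf2*, inserted at that locus. The array was built in embryonic stem cells by cassette exchange and passed on by chimeric males, and both genotypes were on a C57BL/6J background. RNA was taken from whole embryos, so the measurements do not separate tissues.

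Members of this family are single-pass membrane proteins that bind ligands outside the cell through small cysteine-rich repeats and, in most cases, are drawn into the cell by adaptor proteins that hold their short cytoplasmic tails. Some mainly clear lipoproteins and proteases from the cell surface, and others mainly carry signals. In the midgestation embryo, VLDLR and LRP8 are known as receptors of reelin in migrating neurons, LRP1 as an endocytic receptor of mesenchyme and vessel wall, LRP4 as a regulator of limb and neuromuscular development, and LRP5 and LRP6 as co-receptors of Wnt ligands together with Frizzled proteins.

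The agent that distinguishes the genotypes is a pair of mature microRNAs cut from the *Mir483* hairpin, and a microRNA pairs with target transcripts mainly through its seed, bases 2 to 8. Both are shown because the seed decides which member transcripts hold a match. The sequences are from RefSeq (GRCm38.p6), both on the minus strand of chromosome 7, and capitals mark the seed.
miR-483-3p, chr7:142654932-142654952: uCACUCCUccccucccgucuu
miR-483-5p, chr7:142654968-142654989: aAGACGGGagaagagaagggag

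The 3′ UTR of the longest coding transcript of each member was searched, on the transcript strand only, for AGGAGTG, which pairs with the miR-483-3p seed, and for CCCGTCT, which pairs with the miR-483-5p seed. *Lrp4* and *Lrp6* each held AGGAGTG once, and the other 6 members lacked it. CCCGTCT was in none of the 8. Among 20743 genes with an annotated 3′ UTR, 9.57% held the first motif and 2.45% the second. The 2 sites are shown with their flanks in GRCm38, with the match in capitals.
*Lrp4*, chr2:91513158-91513186, plus strand: agtggtaagcaAGGAGTGgagaggtggtg
*Lrp6*, chr6:134450430-134450458, minus strand: catcactgaccAGGAGTGtctgggtttta
The site lay 1408 bases into the 2018-base UTR of *Lrp4* and 339 bases into the 4310-base UTR of *Lrp6*. *Vldlr*, with the longest of these UTRs at 5091 bases, had none. Those of *Lrp5* and *Lrp8* were short, at 202 and 148 bases, whereas other annotated transcripts had UTRs of up to 7934 and 4529 bases. With every annotated transcript that has a stop codon, *Lrp1b* also held AGGAGTG once, where 13.0% of genes did. A match in a transcript is a description of its letters and does not show that the microRNA acts there.

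The libraries held 6357343 to 19151368 counts, and 3 counts, the smallest level taken as detectable, corresponded to 0.157 to 0.472 CPM (counts scaled to a common library total). *Mir483* checked the labels, with 11, 5 and 2 counts in WT and 85, 51 and 36 counts in 5C, so that every 5C library exceeded every WT library. Its fitted difference was 8.29-fold (log2 3.05, standard error 0.36), with an adjusted p of 0.169 in edgeR's quasi-likelihood test. All 10 lineage markers of a midgestation embryo (neural, cardiac, blood, somite, endothelial and epithelial) were detected in every library. Libraries nevertheless stood apart. Summed over 4 Y-linked genes, replicate 2 of each genotype had 48 counts in WT and 1 count in 5C, against 1211 to 3612 counts in the other 4, although the pools were stated to be male. Summed over 10 markers of yolk sac endoderm, the WT libraries had 6077, 182 and 427 CPM and the 5C libraries 120.3, 123 and 1177 CPM. The members' fold changes and the counts of genes at an unadjusted p under 0.05 were therefore also computed without single libraries and without both replicates 2.

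To see how much of each receptor these embryos transcribe, levels were expressed per length, as CPM per kilobase (kb) of exon. The length was that of all annotated exons of a gene, merged. It was 10514 bases for *Lrp8* and 9738 for *Lrp5*, whose longest coding transcripts had 3291 and 5161 bases. The order of the members and the size of ratios between them depend on this choice, and no other length was used. *Lrp6*, the Wnt co-receptor, was highest at 15.8 ± 1.09 CPM per kb (SD, n = 6), followed by *Lrp1* at 10.2 ± 1.06 and *Lrp4* at 7.92 ± 0.489. These lay above the middle of 13980 coding genes tested, whose median was 6.41 CPM per kb. *Lrp5* (4.53 ± 0.624), *Lrp8* (4.48 ± 0.147) and *Sorl1* (3.75 ± 0.56) formed a middle group, with *Vldlr* at 2.69 ± 0.314 below it. *Lrp1b*, a giant relative of *Lrp1* known mainly from brain, was last at 0.110 ± 0.0301 CPM per kb, and rested on 14 to 47 counts per library.

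**Figure D1:**
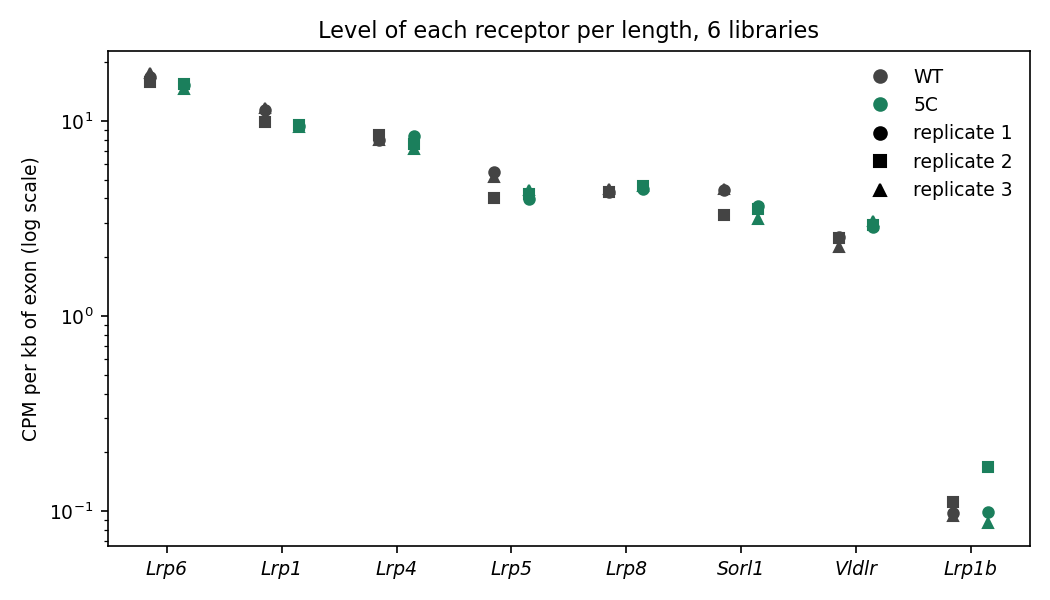
Level of each receptor in CPM per kb of exon on a log axis, with 1 point per library, WT in grey and 5C in green, symbols giving the replicate number. With all annotated exons merged as the length, *Lrp6*, *Lrp1* and *Lrp4* lay above all other members in every library. *Lrp1b* lay more than an order of magnitude below *Vldlr*.

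With this length, the order held across libraries at both ends and not in the middle. The ranges of *Lrp6*, *Lrp1*, *Lrp4* and *Lrp5* over the 6 libraries did not overlap between neighbours, and neither did those of *Sorl1* and *Vldlr* or of *Vldlr* and *Lrp1b*. *Lrp5* ranged from 3.98 to 5.47 CPM per kb and *Lrp8* from 4.31 to 4.65, so these neighbours could not be ordered, and *Lrp5* exceeded *Lrp8* in 2 of 6 libraries. *Lrp8* and *Sorl1* (3.15 to 4.45) also overlapped. *Lrp6* took 31.3% to 32.7% of the summed level of the 8 members in every library. The summed level was 48.4 to 53.6 CPM per kb in WT and 46.3 to 48.1 in 5C.

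To ask whether excess *Mir483* altered the receptors, each member was compared between 5C and WT with edgeR's quasi-likelihood test, with adjustment over the 16784 genes tested. Of the 8 members 0 had an adjusted p under 0.05, and of all genes tested 0% had one. The study, also with edgeR, did report differentially expressed genes in E10.5 embryos. Its limits were a false discovery rate under 0.05 and a change of over 1.5-fold. Why the calls differ was not tested. DESeq2 and limma-voom also called 0 members. At an unadjusted p under 0.05 there were 3 members, *Lrp1* and *Lrp6* lower in 5C and *Vldlr* higher, where 6.02% of all genes tested had such a p (3.47% lower and 2.55% higher). The same 3 members were those whose genotypes did not overlap, which held for 11.4% of all genes tested (5.1% with 5C lower and 6.26% with 5C higher). The median log2 fold change was -0.12 over the 8 members and -0.00 over all genes tested, with 5 members lower and 3 higher. In RNA from whole embryos, fewer cells of a type and less RNA per cell cannot be told apart.

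**Figure D2:**
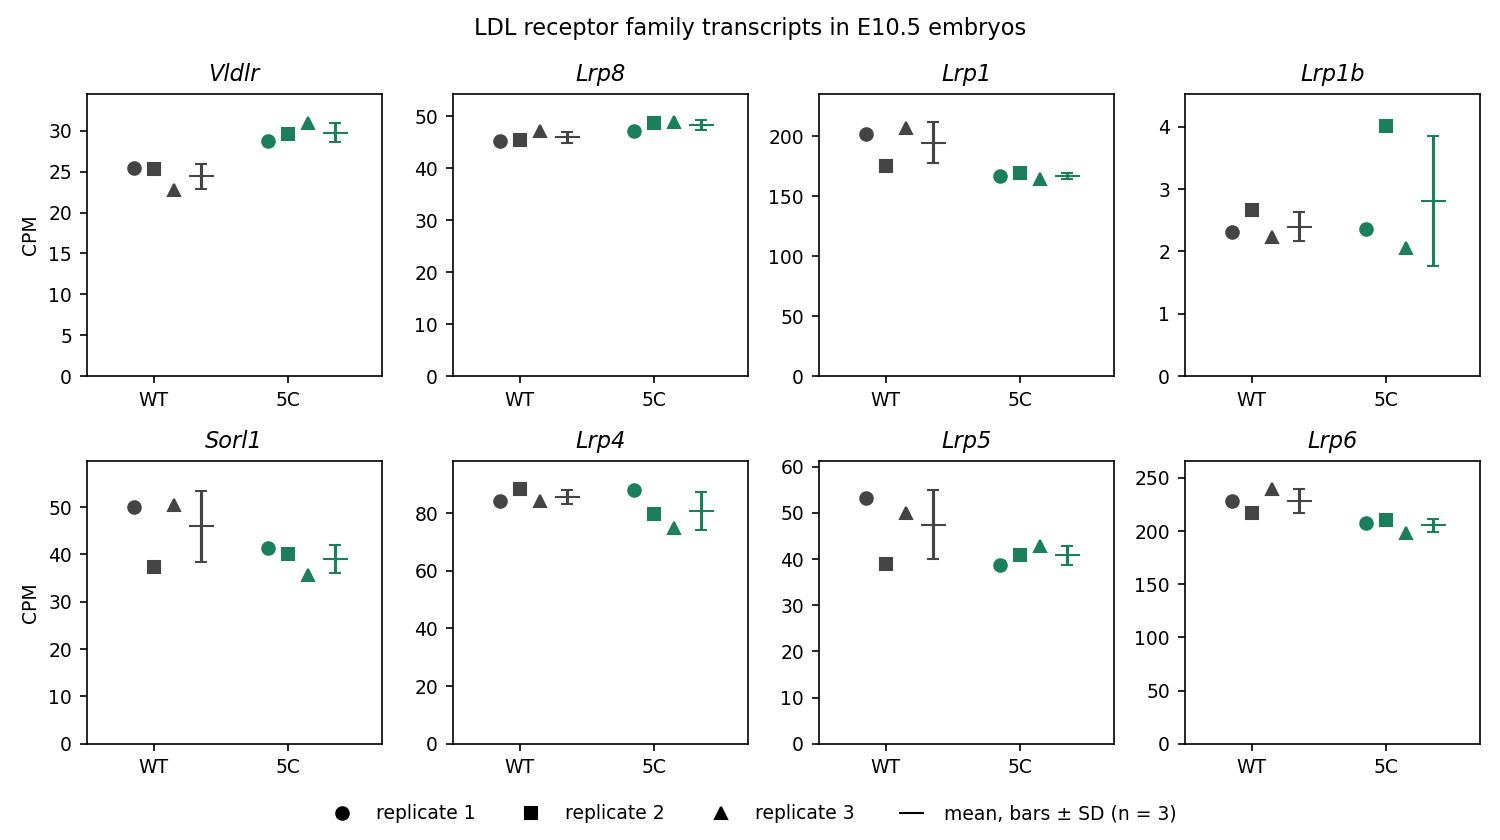
CPM of each member in the 6 libraries, WT in grey and 5C in green, with symbols giving the replicate number and the bar at the right of each group the mean ± SD (n = 3). The genotypes separated for *Vldlr*, *Lrp1* and *Lrp6*, while WT replicate 2 lay among the 5C libraries for *Lrp5* and *Sorl1*.

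Among the reelin receptors, *Vldlr* (ENSMUSG00000024924; chromosome 19, 27216484 to 27254231, plus strand) also takes up triglyceride-rich lipoproteins. Its WT libraries gave 25.4, 25.3 and 22.7 CPM, and its 5C libraries 28.7, 29.6 and 31.0 CPM. Every 5C library thus lay above every WT library. The means were 24.5 ± 1.58 and 29.8 ± 1.19 CPM (SD, n = 3 each), 1.21-fold higher in 5C, with a 95% interval of 1.05 to 1.40 and a standard error of 0.09 on the log2 scale (log2 fold change 0.28). Before adjustment p was 0.0138, and after it 0.781.

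*Lrp8* (ENSMUSG00000028613; chromosome 4, 107802261 to 107876840, plus strand), also called apolipoprotein E receptor 2, gave 45.3, 45.4 and 47.2 CPM for the WT libraries, while the 5C libraries were at 47.2, 48.8 and 48.9 CPM. The WT replicate 3 and 5C replicate 1 libraries met at the same level, so the genotypes overlapped. Its log2 fold change was 0.07 with a 95% interval of -0.09 to 0.23, or 0.942-fold to 1.17-fold.

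Since *Vldlr* and *Lrp8* share reelin as a ligand, their ratio per length was taken within each library. *Vldlr* amounted to 0.586, 0.582 and 0.501 of *Lrp8* in WT and to 0.634, 0.635 and 0.663 in 5C. The ratio was higher in every 5C library, by 0.21 on the log2 scale, and this is given as a description without a test. *Reln*, which encodes reelin, had a log2 fold change of -0.06, and *Dab1*, the adaptor that relays its signal, had -0.03, with adjusted p-values of 0.965 and 0.994 in edgeR's quasi-likelihood test. As a background for neuronal RNA, the summed level of 10 neuronal markers was 759 to 844 CPM in WT and 766 to 884 CPM in 5C. Of these markers 8 were higher in 5C. In edgeR 2 of them had an unadjusted p under 0.05, *Elavl4* with a log2 fold change of 0.31 and *Stmn2* with 0.24. Of all genes tested 2.55% were higher at such a p. For 4 of the markers every 5C library lay above every WT library, which held for 6.26% of all genes tested. None of the 10 was at 0 in any library, and their part in the *Vldlr* difference was not tested.

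Of the large endocytic receptors, *Lrp1* (ENSMUSG00000040249; chromosome 10, 127538161 to 127621148, minus strand) binds apolipoprotein E, proteases and their inhibitors. The WT embryos yielded 202, 175 and 207 CPM, the 5C embryos 167, 169 and 164 CPM. WT replicate 2 came closest to the 5C libraries, which were within a narrow range, and the genotypes did not overlap. The means were 195 ± 17.0 and 167 ± 2.34 CPM (SD, n = 3 each), or 0.857-fold in 5C with a 95% interval of 0.764 to 0.961. On the log2 scale this was -0.22 ± 0.07 (standard error), with an edgeR p of 0.0137 and an adjusted p of 0.781.

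*Lrp1b* (ENSMUSG00000049252; chromosome 2, 40595246 to 42653624, minus strand) was scarce, at 2.31, 2.66 and 2.23 CPM for WT against 2.36, 4.01 and 2.06 CPM for 5C. The value of 5C replicate 2 stood above the rest, and the other 5C libraries lay within or below the WT range. Its log2 fold change of 0.20 had a 95% interval of -0.42 to 0.83, so that no difference was detectable at this depth, and without 5C replicate 2 it was -0.12. *Lrp1b* was at 0.0093 ± 0.00177 of *Lrp1* per length in WT and 0.0125 ± 0.00451 in 5C (SD, n = 3 each).

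*Sorl1* (ENSMUSG00000049313; chromosome 9, 41964720 to 42124297, minus strand) encodes a sorting receptor that steers the amyloid precursor protein and other cargo between endosomes and the Golgi. WT libraries held 50.1, 37.3 and 50.4 CPM of it, and 5C libraries 41.3, 40.0 and 35.7 CPM. WT replicate 2 lay inside the 5C range, while the other WT libraries lay above all 5C libraries. The log2 fold change was -0.23 ± 0.12 (standard error), with an edgeR p of 0.084 and an adjusted p of 0.781. *App*, which encodes the precursor protein, had a log2 fold change of -0.01.

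*Lrp4* (ENSMUSG00000027253; chromosome 2, 91457511 to 91513779, plus strand) encodes the agrin receptor of the neuromuscular junction and one of the inhibitors of Wnt signalling in limb and tooth. The 3 WT values were 84.1, 88.5 and 84.2 CPM, and the 3 of 5C were 87.9, 79.7 and 75.0 CPM. The 5C libraries spread to both sides of the lower WT values, so the genotypes overlapped. Its log2 fold change was -0.08 with a 95% interval of -0.25 to 0.09. *Agrn*, the gene of its ligand, had a log2 fold change of -0.12 with an adjusted p of 0.781 in edgeR's quasi-likelihood test, and -0.20 (unadjusted p 0.0176) without 5C replicate 1. *Musk*, the kinase that LRP4 partners in muscle, was too low to be tested.

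Both Wnt co-receptors had lower means in 5C. *Lrp6* (ENSMUSG00000030201; chromosome 6, 134446476 to 134566965, minus strand) stood at 228, 217 and 239.6 CPM for WT and at 208, 209.9 and 198 CPM for 5C. The genotypes did not overlap, although WT replicate 2 lay close to 5C replicate 2. The means were 228 ± 11.5 and 205 ± 6.32 CPM (SD, n = 3 each), or 0.901-fold in 5C with a 95% interval of 0.815 to 0.996. Its log2 fold change was -0.15 ± 0.06 (standard error), with an edgeR p of 0.0424 and, over all genes, an adjusted p of 0.781. *Lrp6* is one of the 2 members with a miR-483-3p seed match in the 3′ UTR of the longest coding transcript. *Lrp4*, which holds the other, had genotypes that overlapped and a log2 fold change of -0.08. *Lrp1b*, with a match in another transcript, was at 0.20. Of the members without a match, *Lrp1* was at -0.22, *Lrp5* at -0.22, *Sorl1* at -0.23, *Lrp8* at 0.07 and *Vldlr* at 0.28. The part of the seed match in these differences was not tested.

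*Lrp5* (ENSMUSG00000024913; chromosome 19, 3584828 to 3686564, minus strand), whose human counterpart sets bone mass, gave 53.3, 39.0 and 49.9 CPM for WT, compared with 38.7, 40.9 and 42.9 CPM for 5C. WT replicate 2 lay among the 5C libraries, as it did for *Sorl1*. Its log2 fold change was -0.22 ± 0.12 (standard error), where edgeR gave a p of 0.0924 and an adjusted p of 0.781. *Lrp5* stood at 0.291 ± 0.0377 of *Lrp6* per length in WT and 0.280 ± 0.0218 in 5C (SD, n = 3 each), and this ratio overlapped between genotypes.

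Single libraries decided how many members had an unadjusted p under 0.05. Without WT replicate 2 there were 5, *Sorl1* and *Lrp5* having joined with log2 fold changes of -0.36 and -0.34, where 10.4% of all genes had such a p. Without both replicates 2 the same 5 passed, against 5.11% of all genes. Without WT replicate 3, the library with the fewest counts, there were 0, with p-values of 0.0533 for *Vldlr* and 0.0562 for *Lrp1*, against 5.11% of all genes. Without any other single library there were 2, *Vldlr* and *Lrp1*, while the share of all genes ran from 2.62% without 5C replicate 2 to 8.66% without 5C replicate 1. *Vldlr* stayed higher in 5C, and *Lrp1*, *Lrp6*, *Lrp5*, *Sorl1* and *Lrp4* stayed lower, in the 6 fits that each left out 1 library. Their log2 fold changes ranged there from 0.22 to 0.31 for *Vldlr*, from -0.29 to -0.18 for *Lrp1*, from -0.19 to -0.12 for *Lrp6*, from -0.34 to -0.11 for *Lrp5* and from -0.36 to -0.16 for *Sorl1*.

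**Figure D3:**
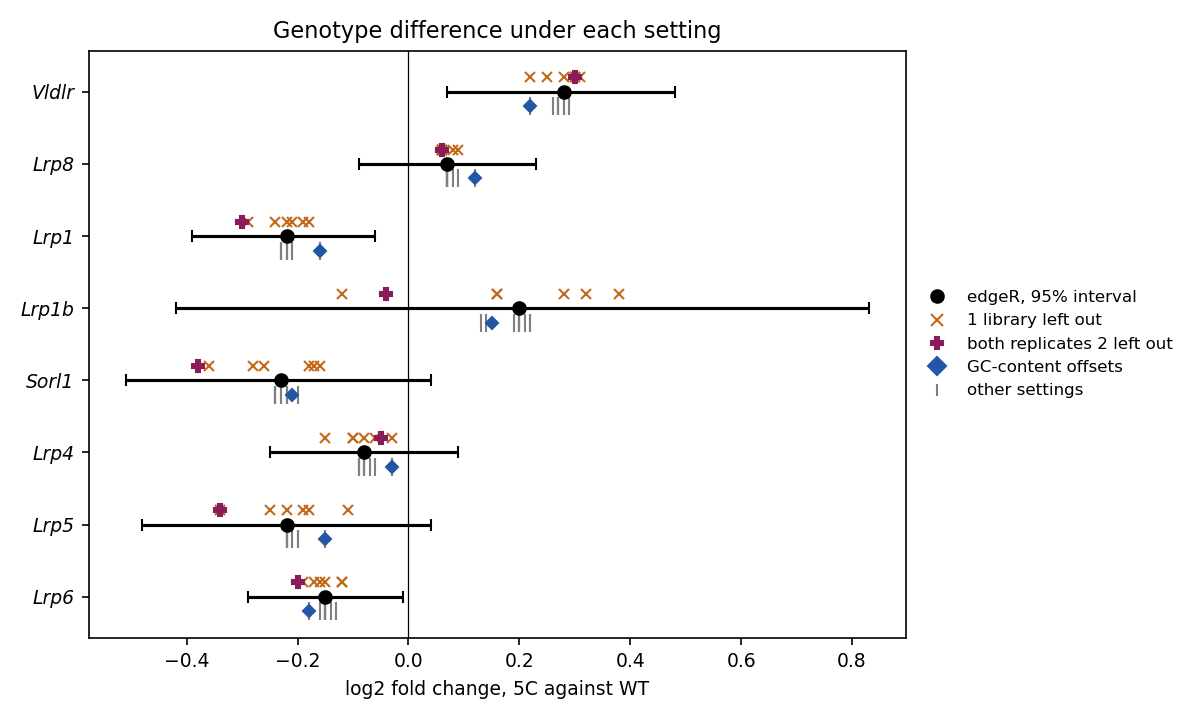
Log2 fold change of each member (5C against WT) in edgeR with its 95% interval, with 1 library left out, with both replicates 2 left out, with offsets for GC content, and under other scalings, filters and tests. *Vldlr* stayed right of 0 and *Lrp1*, *Sorl1*, *Lrp4*, *Lrp5* and *Lrp6* left of 0 at every mark, while *Lrp1b* crossed 0.

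Base composition moved with the fold changes. Across 13980 coding genes tested, which are not independent replicates, log2 fold change and the GC content of the transcript had a Spearman rho of -0.356. Transcripts of *Vldlr* (43.8% GC) and *Lrp1b* (43.5%) were among the poorest in GC of the family and were higher in 5C, whereas those of *Lrp1* (57.9%) and *Lrp5* (58.6%) were rich in GC and were lower. *Lrp6* (46.0%) and *Lrp8* (59.9%) ran the other way. GC content was that of the longest coding transcript, which for *Lrp5* and *Lrp8* had a short 3′ UTR. Genes within 1 percentage point of GC had a median log2 fold change of 0.05 around *Vldlr* and -0.07 around *Lrp1*. With offsets fitted on GC content in each library, the log2 fold change became 0.22 for *Vldlr*, -0.16 for *Lrp1* and -0.18 for *Lrp6*, and the unadjusted p-values were 0.0291, 0.0467 and 0.0191. The part of base composition in these differences was not tested further.

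**Figure D4:**
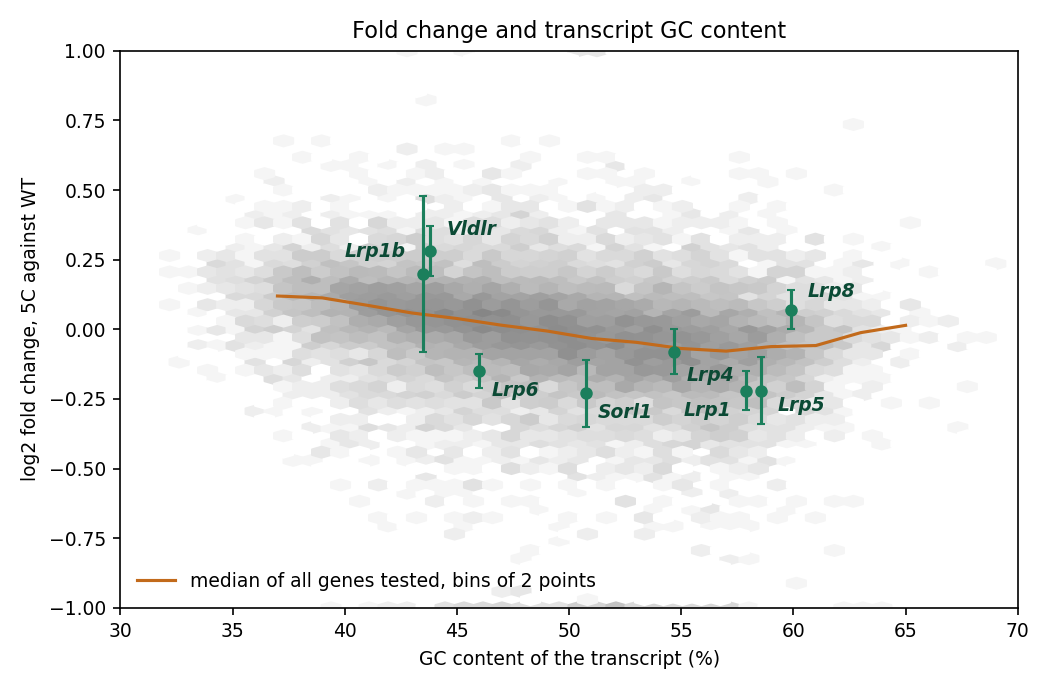
Log2 fold change (5C against WT) against GC content of the longest coding transcript, with all genes tested in grey, values beyond 1 drawn at the edge, their median in bins of 2 points as a line, and the 8 members with bars of 1 standard error. *Vldlr*, *Lrp1b* and *Lrp8* lay above the line, *Lrp1*, *Lrp5*, *Lrp6* and *Sorl1* below it, and *Lrp4* close to it.

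The other genes of the pathway were taken from lists by role. Among 9 other genes with LDL receptor repeats, 7 were tested, 0 had an adjusted p under 0.05 in edgeR, and 1, *Lrp2*, had an unadjusted p under 0.05, with a median log2 fold change of -0.01. *Lrp2*, the megalin of absorptive epithelia such as yolk sac endoderm, gave 245, 80.1 and 94.1 CPM for WT and 74.3, 56.1 and 93.5 CPM for 5C, so that WT replicate 1, the library with the most yolk sac marker RNA, was far above the rest. Its log2 fold change was -0.92, and -0.21 without that library. Without the filter on low counts its log2 fold change was -0.91, and edgeR's quasi-likelihood test gave *Lrp2* an adjusted p of 5.9e-24. In that fit 416 genes in all had an adjusted p under 0.05. With the filter, the unadjusted p of *Lrp2* was 0.0969 in DESeq2, 0.059 in limma-voom and 0.172 with edgeR's robust moderation. The genotypes overlapped for *Lrp2*.

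Of 11 ligand genes 10 were tested and 0 had an adjusted or an unadjusted p under 0.05 in edgeR, with 7 lower and 3 higher and a median log2 fold change of -0.03. *Dkk1*, an inhibitor that binds LRP5 and LRP6, had a log2 fold change of 0.10, and *Thbs1*, a matrix ligand of LRP1, had 0.21 with an unadjusted p of 0.15. The value of *Thbs1* was 0.38 (unadjusted p 0.007) without WT replicate 1 and 0.07 (unadjusted p 0.52) without WT replicate 2. Of 14 chaperones, adaptors and partners 13 were tested and 0 had an adjusted p under 0.05. Only *Gulp1*, an engulfment adaptor that binds the LRP1 tail, had an unadjusted p under 0.05, at 0.048 with a log2 fold change of 0.26, and its genotypes overlapped. Its p exceeded 0.05 without WT replicate 1 (0.174), WT replicate 3 (0.0586), 5C replicate 2 (0.183) or 5C replicate 3 (0.124). *Mesd*, the chaperone that folds LRP5 and LRP6, was at 80.3, 81.6 and 75.6 CPM for WT and 74.5, 74.7 and 74.5 CPM for 5C. All 5C values lay below WT, by 0.09 on the log2 scale, with an unadjusted p of 0.21 in edgeR. For 1 other partner all 5C values lay above WT. Over all genes tested, the genotypes did not overlap with 5C lower for 5.1% and with 5C higher for 6.26%. *Dab2*, an endocytic adaptor of megalin in yolk sac endoderm, went from -0.55 to 0.34 in log2 fold change without WT replicate 1. Its adjusted p in edgeR was 0.8, and 8.1e-06 without the filter on low counts, where the log2 fold change was -0.54. With the filter, the unadjusted p of *Dab2* was 0.394 in DESeq2, 0.359 in limma-voom and 0.422 with edgeR's robust moderation.

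As a readout downstream of the co-receptors, 9 target genes of Wnt signalling were tested, of which 3 were lower and 6 higher in 5C and 0 had an adjusted or an unadjusted p under 0.05 in edgeR. Their median log2 fold change was 0.04. *Axin2*, a general target, was 0.04 with a standard error of 0.07, and *Sp5* was the farthest from 0 at 0.49 with an unadjusted p of 0.0695. Without WT replicate 1 *Sp5* was at 0.79 with an unadjusted p of 0.0125, and without WT replicate 2 at 0.32 with 0.226.

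Markers of other cell types were set beside these values. All 10 yolk sac endoderm markers had a negative log2 fold change, with a median of -2.24, and 1 of them had an unadjusted p under 0.05. At such a p, 3.47% of all genes tested were lower. Without WT replicate 1, the log2 fold change was 0.31 for *Vldlr*, -0.19 for *Lrp1*, -0.15 for *Lrp6*, -0.11 for *Lrp5* and -0.16 for *Sorl1*. Markers of decidua and uterine killer cells, 8 in all, summed to 15.5 to 53.1 CPM in WT and 16.8 to 56.0 CPM in 5C, with 7 detected in every library and *Prl3c1* at 0 in all but 5C replicate 3. Of the 6 tested, 5 were higher in 5C, over a range of log2 fold change from -0.08 to 2.24. An unadjusted p under 0.05 in edgeR was reached by 2, *Gzmg* with a log2 fold change of 2.24 and *Gzmf* with 1.63. Each had overlapping genotypes, and 2.55% of all genes tested were higher at such a p. Among the 10 embryonic lineage markers 7 were lower and 3 higher, with a median of -0.10. The genotypes did not overlap for 2 lower and 2 higher ones, against 5.1% and 6.26% of all genes tested. *Myh6*, a myosin of heart muscle, was at 61.1, 86.5 and 72.3 CPM for WT and 48.9, 39.2 and 33.1 CPM for 5C, every 5C library being lower. On the log2 scale the difference was -0.85, with an edgeR p of 3.5e-04 and an adjusted p of 0.781. *Sox2*, a factor of neural progenitors, was at 0.25 with every 5C library higher, with an edgeR p of 0.00923 and an adjusted p of 0.781. Their part in the members' differences was not tested.

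The tested gene most like each member in its log2 CPM over the 6 libraries was named among 10889 genes with a mean log2 CPM of 3 or more. It was *Stxbp6* for *Vldlr* (Pearson r = 0.985), *Pelp1* for *Lrp1* (0.996), *Gapvd1* for *Lrp1b* (0.981), *Ogfod1* for *Lrp4* (0.993), *Meg3* for *Lrp5* (0.986), *Med15* for *Lrp6* (0.994), *Mybl1* for *Lrp8* (0.998) and *Nynrin* for *Sorl1* (0.998). With only 6 points that share library depth and genotype, between 22 and 381 genes had an r over 0.9 with each member, so these values are a description.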

How the data were processed

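Per the study's methods, the authors aligned short single-end reads of poly(A)-selected, stranded libraries with STAR 2.5.0a to GRCm38 (Ensembl annotation) and deposited raw counts per gene, whole numbers without normalization. Genotype and replicate number came from the sample titles. Symbols, positions, exon lengths, GC content and 3′ UTRs came from GENCODE M21 (GRCm38), in which 55141 of 55401 identifiers were found. Exons of the members overlapped other genes on the same strand over at most 0.416% of their length and on the opposite strand over at most 1.63% (*Sorl1*), and which strand column was counted was not given in the sources used here.

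With edgeR 4.0.16 (R 4.3.3), genes passing filterByExpr were normalized by TMM and tested by the two-sided quasi-likelihood F-test (legacy option), with Benjamini-Hochberg adjustment over 16784 genes. The standard error was the log2 fold change divided by the square root of F, and intervals used its t quantile. CPM used TMM-scaled totals. On simulated counts, 73.0% of 200 genes changed 2-fold and 97.0% of 200 changed 4-fold were recovered, with 9.32% and 11.4% false calls. The false calls thus exceeded the adjusted p threshold of 0.05. Genes were drawn independently of each other and no change below 2-fold was simulated. These rates therefore do not carry over to the members' differences. Libraries are pools of 2 embryos, so p-values measure the spread between pools. Which litters each pool came from was not given in the sources used here.

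Alternatives were DESeq2 1.42.0, limma-voom (limma 3.58.1), other scalings and filters, the replicate block, GC-content offsets and libraries left out. The search for seed matches in all transcripts was added after the data were seen. Members, lists and named genes were chosen with earlier results of these data known. Named genes were the 8 members, *Mir483*, at most 3 of each list by smallest p, and the gene most like each member. *Reln*, *Dab1*, *App*, *Dkk1*, *Axin2* and *Musk* were named for their roles, and *Prl3c1* for its zeros, after their values were seen. Protein sequences were not used here. Values of 1 other gene on a list are not reported here.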

Additional observations from a re-analysis of the deposited data

How the results depend on the processing

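Under every alternative run, 0 members had an adjusted p under 0.05. The count of members at an unadjusted p under 0.05, 3 in the test as reported, ranged from 0 (without WT replicate 3) to 5 (without WT replicate 2) when 1 library was left out, was 5 without both replicates 2, and was 1 (*Lrp6*) with GC-content offsets and the replicate block together, where 3.34% of all genes had such a p. With the replicate block alone it was 2, *Lrp1* and *Vldlr* (4.66% of all genes), with library size alone 2, the same members (6.26%), and without a count filter 4, *Lrp6* being replaced by *Lrp5* and *Sorl1* (6.55%). The replicate numbers were not treated as pairs in the test as reported. Deviations from the genotype means correlated at -0.174, 0.202 and -0.166 for replicates 1, 2 and 3. So few values cannot decide whether the libraries are paired. The log2 fold change of *Lrp1b* ranged from -0.12 (without 5C replicate 2, reversed) to 0.38 over the fits without 1 library and reversed to -0.04 without both replicates 2. That of *Dab2* ranged from -0.89 to 0.34 (without WT replicate 1, reversed) over the same fits and was -0.91 without both replicates 2.

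For the lists, the count at an unadjusted p under 0.05 ranged over the fits without 1 library from 0 to 1 for other family genes, ligands and Wnt targets and from 0 to 2 for partners. Other family genes were 0 with DESeq2, limma-voom and robust moderation. Ligands were 1 and partners 2 without a count filter. Partners were 0 with relative log expression, limma-voom, GC-content offsets with the block, and without both replicates 2, and Wnt targets were 1 with GC-content offsets. The causes were not tested. Over all genes, an adjusted p under 0.05 was reached by 0 in edgeR and limma-voom, 19 with DESeq2, 3 with robust moderation and 416 without a count filter, *Lrp2* and *Dab2* among them. *Mir483* had one with DESeq2, robust moderation, no count filter and without 5C replicate 3. At 14 to 47 counts, *Lrp1b* limits what depth can show.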
